A study of Mus musculus with 8 samples.

Results

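The Kruppel-like factors Klf2, Klf3, Klf4, Klf6, Klf9 and Klf10 were followed in mouse cumulus cells, the somatic cells around the oocyte, across the hours that lead to ovulation. These 6 genes, of 8251 with a probe set naming 1 gene on the array, were chosen by symbol, with their signals on the same 8 arrays already known, and all 10 probe sets that carry exactly one of these symbols are described. At 1 probe set, 99622_at, Klf4 was several-fold higher by 3 h after the ovulatory stimulus in both genotypes. Klf6 was higher at every later time, Klf2 was higher from 9 h, and Klf3 was highest after ovulation. In cells without the prostaglandin receptor EP2, 1 probe set each of Klf3 and Klf4 had lower signals than in wild type at 3 and 9 h. In these cells Klf6 had lower signals at 0 and 3 h, and Klf2, Klf6 and the same Klf4 probe set had higher signals at 14 h. Klf9 varied little, and 1 of the Klf10 probe sets was higher in EP2-deficient cells at 3 h. Their signals chose the members, so these values are a description, and counts of members called are given beside the background and read no further.

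The cells came from Ptger2(-/-) mice, written EP2KO, and from wild-type mice, written WT. Ptger2 encodes EP2, which couples prostaglandin E2 to cyclic AMP. All mice were C57Bl/6 females of 3 to 4 weeks, a prepubertal age, and all received 5 IU of pregnant mare serum gonadotropin (PMSG), an FSH-like hormone. At 48 h after PMSG they either were killed (0 h) or received 5 IU of human chorionic gonadotropin (hCG), an LH-like hormone, and were killed at 3, 9 or 14 h. The labels name no restriction of the mutation to a cell type, so other ovarian cells of EP2KO mice carry it too. Each genotype and time has 1 array, which gives 8 arrays in 8 groups, and how many animals each array pools is not stated. Until 9 h the cells were stripped by hand from complexes out of punctured follicles. The ovulated complexes of 14 h came from the oviduct and were stripped with hyaluronidase, so ovulation and collection method cannot be told apart.

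Kruppel-like factors are transcription factors that bind GC-rich and CACCC sequences through zinc fingers at the end of the protein and either activate or repress genes according to the cofactors they recruit. Klf2 and Klf4 are switched on in endothelium through the MEK5, ERK5 and MEF2 kinase and transcription factor arm, Klf4 and Klf6 restrain the cell cycle in part through Cdkn1a, and Klf3 represses through the CtBP corepressors. Klf9 is induced by glucocorticoids and works with the progesterone receptor in the uterus, and Klf10, first known as a gene induced by TGF-beta, represses through the Sin3 complex. Several members, Klf4, Klf6 and Klf10 among them, behave as early response genes in other cells. In the ovary the surge of LH acts first on mural granulosa cells, and EGF-like factors and prostaglandin E2 pass the signal to the cumulus cells.

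In EP2KO cells Klf2, Klf6 and Klf4 at 99622_at had higher signals together at 14 h. In these cells Klf3 at 100011_at and Klf4 at 99622_at had lower signals together at 3 and 9 h. The 250 bases before the RefSeq start of these 4 genes (build GRCm38.p6) are therefore shown for comparison. They are chr4:55532476-55532725 (minus strand) for Klf4, chr13:5861239-5861488 (plus strand) for Klf6, chr8:72318812-72319061 (plus strand) for Klf2 and chr5:64803271-64803520 (plus strand) for Klf3, each written 5′ to 3′ along the gene. Capitals mark TGACG, the core of the site bound by CREB, CACCC, the site bound by Kruppel-like factors, and the MEF2 box, each on either strand; Klf6 holds none of them in this stretch.
Klf4: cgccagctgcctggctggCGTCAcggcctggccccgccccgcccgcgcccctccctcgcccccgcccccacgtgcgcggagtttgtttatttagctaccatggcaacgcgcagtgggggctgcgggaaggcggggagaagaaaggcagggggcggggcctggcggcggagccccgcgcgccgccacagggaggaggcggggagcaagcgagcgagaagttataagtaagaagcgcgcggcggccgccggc
Klf6: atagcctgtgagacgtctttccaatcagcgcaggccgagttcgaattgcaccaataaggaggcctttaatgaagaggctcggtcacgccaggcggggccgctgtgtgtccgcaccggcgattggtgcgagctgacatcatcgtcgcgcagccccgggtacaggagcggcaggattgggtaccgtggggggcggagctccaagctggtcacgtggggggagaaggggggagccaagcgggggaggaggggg
Klf2: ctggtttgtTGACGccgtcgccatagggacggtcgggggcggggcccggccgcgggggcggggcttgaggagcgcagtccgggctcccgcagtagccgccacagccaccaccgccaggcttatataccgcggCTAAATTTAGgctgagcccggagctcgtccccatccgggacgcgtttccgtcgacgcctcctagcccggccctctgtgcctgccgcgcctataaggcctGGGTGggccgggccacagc
Klf3: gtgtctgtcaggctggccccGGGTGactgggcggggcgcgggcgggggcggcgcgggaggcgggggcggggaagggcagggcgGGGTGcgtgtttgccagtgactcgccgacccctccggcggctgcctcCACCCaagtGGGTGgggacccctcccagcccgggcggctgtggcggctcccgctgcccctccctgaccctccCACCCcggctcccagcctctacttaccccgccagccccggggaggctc
The motifs were counted in the window of 300 bases from 250 before to 50 after the start, for the 5 members Klf2, Klf3, Klf4, Klf6 and Klf9. TGACG, on either strand, was in 4 of the 5 windows, those of Klf2, Klf3, Klf4 and Klf9, against 20.8% of all 32851 windows of this length. Its first base lay at -241 in Klf2, at -232 in Klf4, at -46 in Klf9 and at 20 in Klf3, which is past the start and outside the stretch shown. The full palindrome TGACGTCA, which holds TGACG on both strands, was in 0 of the 5 and in 1.79% of all windows. CACCC was in 3 of the 5, once each in Klf2 and Klf9 and 5 times in Klf3, against 57.5% of all windows. GGGCGG, a GC box that members and Sp factors bind, was in 4 of the 5 (4 times in Klf4 and 6 times in Klf3, on either strand), against 35.7%. The MEF2 box was found in Klf2 alone of the 5, from -118 to -109, where its letters match on both strands, and in 3.19% of all windows. The CArG box of serum response factor was in 0 of the 5 and 1.63% of all windows, and TATAAA in 0 of the 5 and 13.6%. The GC content was 69.3% for Klf2, 76.7% for Klf3, 74.3% for Klf4, 63.0% for Klf6 and 63.3% for Klf9, against a median of 52.7% over all windows. All 5 windows were richer in GC than that median, and the shares over all windows were not matched for GC content. A match is a description of these letters, not a bound site.

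The values are log2 signals made with RMA (robust multi-array average) on MG_U74Av2 arrays, so a difference of 1 is a doubling of signal. Array medians lay between 7.79 and 7.89, and with so few arrays every value is imprecise. Ptger2 itself had 4.57, 4.24, 4.69 and 4.51 at 0, 3, 9 and 14 h in EP2KO cells, against 4.95, 5.97, 5.37 and 5.33 in WT cells, and was lower in EP2KO at each time. Its signals were far below the array medians and may lie near background, and each difference rests on 1 array per genotype. Whether the Ptger2 probe set lies in the deleted part is not stated. Of the 14 listed markers of granulosa and cumulus cells 11 were measured. Their mean log2 level was 9.10 to 11.22 in EP2KO arrays and 9.27 to 11.24 in WT arrays. Against 0 h 3 of the 11 rose and 7 fell at 9 h, and 2 rose and 7 fell at 14 h (limma, adjusted p under 0.05). Of all probe sets 10.9% were called higher and 12.1% lower at 9 h, and 13.5% and 15.2% at 14 h. Between genotypes, 4 of the 11 were at least 0.5 higher in EP2KO cells at 9 h (Inhba, Inhbb, Esr2 and Hsd17b1, by 0.76 to 1.0). By the same measure 1 was lower at 9 h, and 3 were lower at 14 h. Of all probe sets 1.67% were that much higher and 0.821% lower at 9 h, and 1.17% and 2.49% at 14 h. Has2, the hyaluronan synthase of expanding cumulus, changed by 4.08 ± 0.173 by 3 h (SE; limma, adjusted p = 5.1e-07). The Gapdh 3′ minus 5′ probe set difference, which grows as RNA or its amplified copies get shorter, was 2.82 in EP2KO and 2.87 in WT cells at 14 h, and 0.80 to 1.86 on the 6 earlier arrays. For Actb it was 1.37 in EP2KO and 1.61 in WT cells at 14 h, and 0.69 to 1.54 on the earlier arrays.

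**Figure D1:**
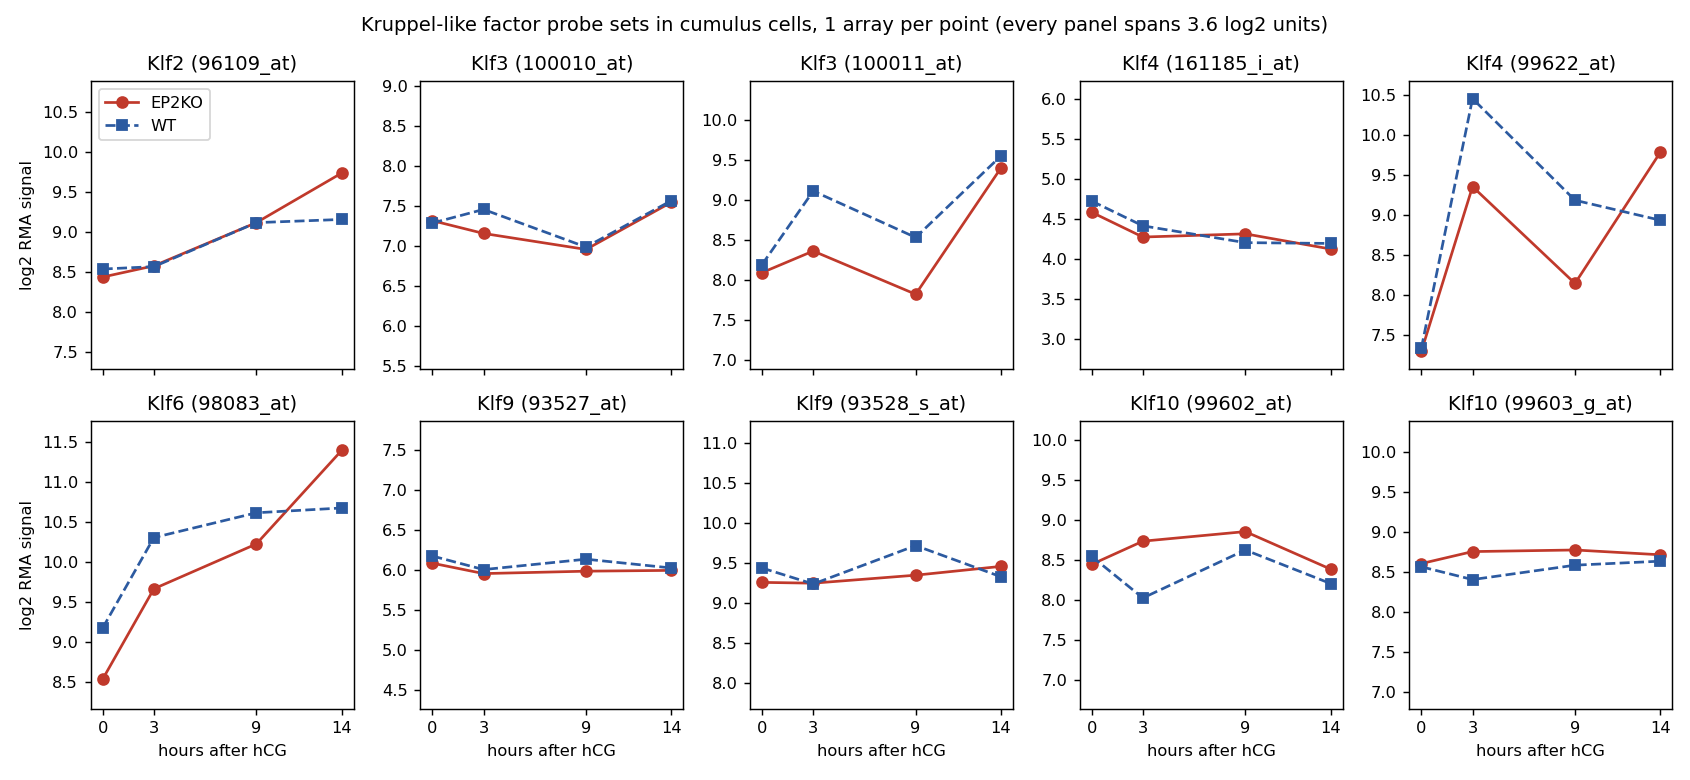
Log2 RMA signal (vertical axis) of the 10 Kruppel-like factor probe sets against hours after hCG (horizontal axis), EP2KO as red circles and WT as blue squares, 1 array per point; each panel spans the same height on the log2 scale but is centred on its own probe set. The Klf4 probe set 99622_at spans 3.16 over the 8 arrays and the Klf9 probe set 93527_at 0.22, and the EP2KO point lies above the WT point at 14 h for Klf2, Klf4 (99622_at) and Klf6.

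Klf4, which blocks cell cycle entry in epithelia and is one of the factors used to make pluripotent stem cells, had the widest range among the 10 probe sets. Its probe set 99622_at had 7.29, 9.35, 8.14 and 9.78 at 0, 3, 9 and 14 h in EP2KO cells, against 7.33, 10.45, 9.18 and 8.93 in WT cells. The genotypes started together, both were high at 3 h and lower at 9 h with EP2KO below WT, and they had crossed by 14 h. The signal was 1.64 higher at 14 h than at 9 h in EP2KO cells and 0.25 lower in WT cells, on the log2 scale. The change by 3 h was 4.17-fold in EP2KO and 8.69-fold in WT cells, and by 14 h it was 5.62-fold in EP2KO and 3.03-fold in WT cells. The fit over both genotypes gave 2.59 ± 0.371 for 3 h against 0 h, 1.35 for 9 h and 2.05 for 14 h (log2, ± SE, n = 2 arrays at each time). Ordered by the mean of the 2 arrays of a time, its levels ran 0 h, 9 h, 14 h and 3 h; the arrays of 0 h lay apart from the rest, whereas those of 9 and 14 h overlapped, as did those of 14 and 3 h. In these bulk samples, fewer cells of a type and less RNA per cell cannot be told apart.

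The other Klf4 probe set, 161185_i_at, lay low on the array, with a mean above only 3.4% of probe sets, and went the other way. It had 4.58, 4.27, 4.31 and 4.12 at 0, 3, 9 and 14 h in EP2KO cells and 4.72, 4.41, 4.20 and 4.19 in WT cells, highest at 0 h in both genotypes. Over the 8 arrays its correlation with 99622_at was -0.67, so the Klf4 values of the text rest on 99622_at alone. The _i suffix is Affymetrix's mark for a probe set built with fewer probes than the usual design.

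Klf6, a factor induced by injury in many tissues that activates Cdkn1a and TGF-beta genes, had 8.53, 9.66, 10.22 and 11.39 at 0, 3, 9 and 14 h in EP2KO cells, against 9.17, 10.30, 10.61 and 10.67 in WT cells. EP2KO cells stood lower at 0, 3 and 9 h and higher at 14 h, and the signal was higher at each later time in both genotypes. By 3 h the change was the same in the genotypes, 1.13 on the log2 scale in EP2KO cells and 1.13 in WT cells, and by 14 h it was 2.86 in EP2KO and 1.50 in WT cells, or 7.26-fold and 2.83-fold. The fit gave 1.13 ± 0.272 for 3 h, 1.57 for 9 h and 2.18 for 14 h against 0 h. The arrays of 3 and 9 h overlapped, and those of 0 h lay below and those of 14 h above them.

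Klf2, known for keeping endothelium and T cells quiescent, had 8.44, 8.58, 9.12 and 9.74 at 0, 3, 9 and 14 h in EP2KO cells, against 8.54, 8.57, 9.12 and 9.16 in WT cells. The genotypes ran together until 9 h, differing by at most 0.10, and EP2KO was 0.58 higher at 14 h. In EP2KO cells the log2 change from 0 h was 0.14, 0.68 and 1.30 at 3, 9 and 14 h, and in WT cells it was 0.03, 0.58 and 0.62. The fit gave 0.09 ± 0.162 for 3 h, 0.63 for 9 h and 0.96 for 14 h against 0 h. Its arrays of neighbouring times did not overlap, though those of 3 and 0 h lay only 0.09 apart in their means.

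Klf3, a repressor that works through CtBP and is known in fat, muscle and blood cells, had at its probe set 100011_at 8.09, 8.36, 7.82 and 9.40 at 0, 3, 9 and 14 h in EP2KO cells, against 8.19, 9.11, 8.53 and 9.55 in WT cells. The signal was highest at 14 h in both genotypes, and EP2KO cells lay 0.75 below WT at 3 h and 0.71 below at 9 h. By 9 h EP2KO cells stood at -0.27 from their own 0 h level and WT cells at 0.34. By 14 h the 2 genotypes had changed alike in size, by 1.31 in EP2KO and 1.36 in WT cells. The fit gave 0.59 ± 0.174 for 3 h, 0.04 for 9 h and 1.33 for 14 h against 0 h, and the arrays of 0, 9 and 3 h overlapped in that order while those of 14 h lay above.

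The other Klf3 probe set, 100010_at, shared the highest level at 14 h but not the whole course. It had 7.32, 7.16, 6.96 and 7.55 at 0, 3, 9 and 14 h in EP2KO cells, against 7.29, 7.46, 6.99 and 7.57 in WT cells. EP2KO cells were 0.30 lower at 3 h but within 0.03 of WT at the other times, so the difference at 9 h was seen at 100011_at only. From 0 h it changed by -0.16 at 3 h in EP2KO cells and by -0.30 at 9 h in WT cells, where 100011_at changed by 0.27 and 0.34, so the probe sets differed in sign there. The correlation of the 2 Klf3 probe sets over the 8 arrays was 0.80.

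Klf10, the TGF-beta inducible factor that represses Smad7, was the member with higher signals in EP2KO cells at 3 h. Its probe set 99602_at had 8.44, 8.73, 8.85 and 8.38 at 0, 3, 9 and 14 h in EP2KO cells, against 8.54, 8.02, 8.62 and 8.20 in WT cells. EP2KO cells stood 0.71 above WT at 3 h, where WT cells had their lowest value. The change by 3 h was 0.29 in EP2KO and -0.52 in WT cells, opposite in sign. The probe set 99603_g_at had 8.61, 8.76, 8.78 and 8.72 in EP2KO cells and 8.57, 8.41, 8.59 and 8.64 in WT cells, and its EP2KO minus WT difference was also widest at 3 h, at 0.35. The fitted changes of 99602_at lay between -0.20 and 0.25 at 3, 9 and 14 h against 0 h, and its 14, 3 and 0 h arrays overlapped in that order.

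Klf9, which acts with the progesterone receptor in the mouse uterus, was nearly flat. Its probe set 93528_s_at had 9.26, 9.25, 9.35 and 9.46 at 0, 3, 9 and 14 h in EP2KO cells, against 9.44, 9.24, 9.72 and 9.33 in WT cells, a range of 0.48 over the 8 arrays. The largest gap was at 9 h, where EP2KO cells were 0.37 lower. The probe set 93527_at had 6.09, 5.96, 5.99 and 6.00 in EP2KO cells and 6.18, 6.01, 6.14 and 6.03 in WT cells, and the arrays of all neighbouring times in its order overlapped.

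**Figure D2:**
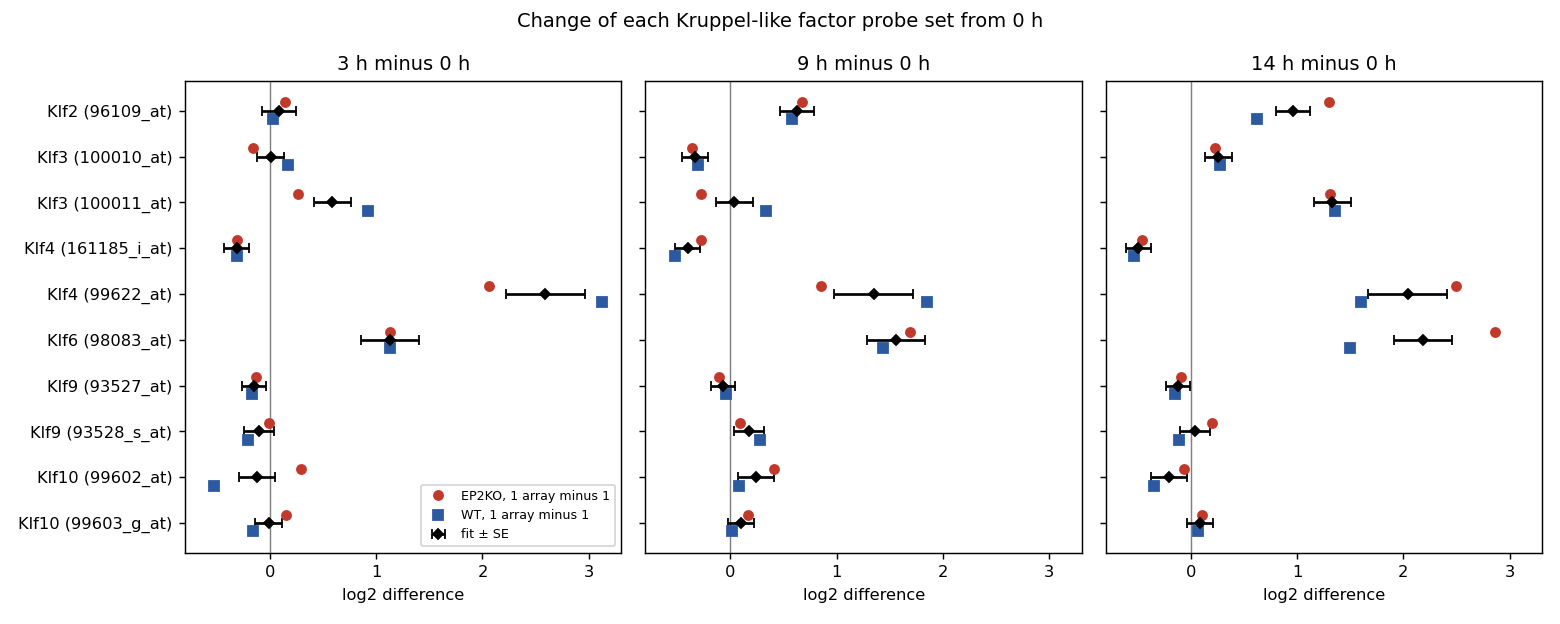
Log2 change of each probe set (rows) from 0 h at 3, 9 and 14 h (panels), with red circles for EP2KO (1 array minus 1 array), blue squares for WT and black diamonds with bars for the limma fit over both genotypes ± SE. Klf4 at 99622_at lies at 2.06 in EP2KO and 3.12 in WT at 3 h, while Klf6 lies at 2.86 in EP2KO and 1.50 in WT at 14 h.

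Across all 12422 probe sets the same fit, with a limma adjusted p under 0.05 as its threshold, called 3 of the 10 member probe sets higher and 0 lower at 3 h against 0 h (Klf3 at 100011_at, Klf4 at 99622_at and Klf6), where 17.4% of all probe sets were called higher and 25.4% lower, or 2161 and 3152. Centring the arrays on their medians, which moves the median change at 3 h to -0.060 in place of -0.135, gave 2394 higher and 2111 lower and called the same 3 members. At 9 h against 0 h it called Klf2, Klf4 at 99622_at and Klf6 higher and Klf4 at 161185_i_at lower (a call lost on centring and on quantile normalization), beside 10.9% of all probe sets higher and 12.1% lower. At 14 h against 0 h it called Klf2, Klf3 at 100011_at, Klf4 at 99622_at and Klf6 higher and Klf4 at 161185_i_at lower, beside 13.5% higher and 15.2% lower. Between 9 h and 3 h Klf2 was called higher and Klf3 at 100011_at and Klf4 at 99622_at lower, with 7.59% and 11.8% of all probe sets called higher and lower, and between 14 h and 9 h both Klf3 probe sets were called higher, with 10.0% and 10.1%. For 9 h against 3 h the count of members was 0 with each array centred and 0 after quantile normalization. The members were chosen on these contrasts, so nothing is read from their counts. At 3 h against 0 h the count of members was 1 without the WT array of 3 h, and at 9 h against 0 h it was 1 or 2 when any one of the 4 arrays of 0 and 9 h was left out.

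**Figure D3:**
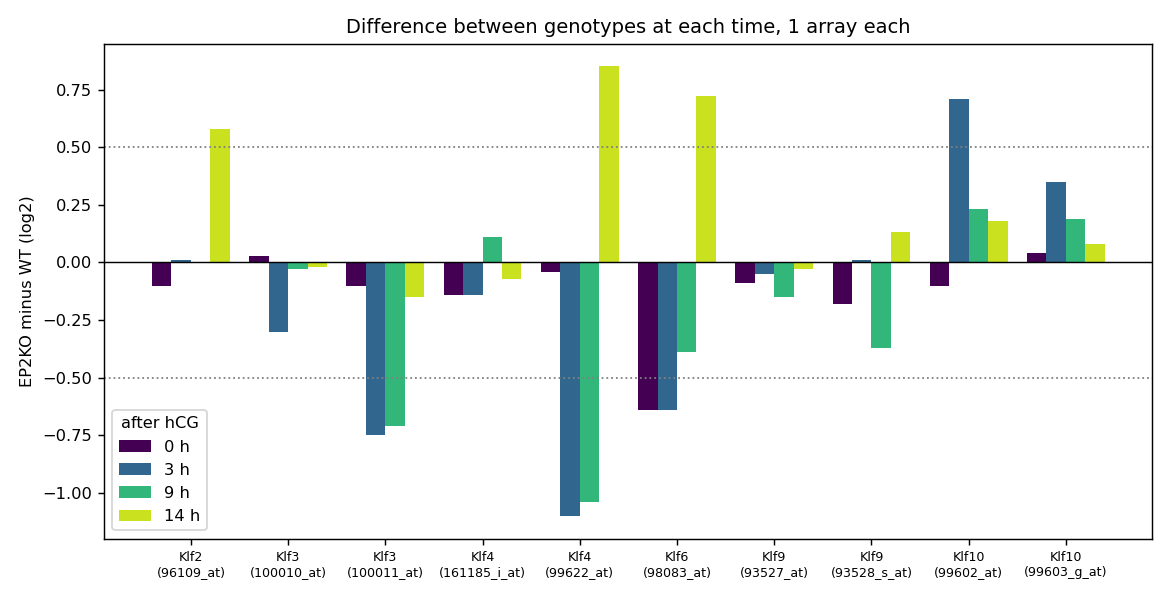
EP2KO minus WT log2 difference (bars, vertical axis) of each Kruppel-like factor probe set (horizontal axis) at the 4 times (dark to light), 1 array per genotype and time, with dotted lines at 0.5 either side of 0. Klf4 at 99622_at lies at -1.10 at 3 h and -1.04 at 9 h and at 0.85 at 14 h, and 5 of the 10 probe sets stay within the lines at all 4 times.

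The comparison of EP2KO with WT asks what the loss of EP2 does to the response to hCG, and with 1 array per genotype at each time it gives values and no test. At 0 h Klf6 was the only member probe set at least 0.5 away from WT, at -0.64. Of all probe sets 0.910% were lower by at least 0.5 in EP2KO cells at 0 h and 1.78% higher. A difference as low as that of Klf6 at 0 h was found in 0.201% of probe sets. At 3 h Klf4 at 99622_at was 1.10 lower in EP2KO cells, Klf3 at 100011_at 0.75 lower and Klf6 0.64 lower, with Klf10 at 99602_at 0.71 higher, beside 2.97% of all probe sets lower by at least 0.5 and 1.12% higher. A difference as low as that of Klf4 was found in 0.306% of probe sets, and one as high as that of Klf10 in 0.217%. At 9 h Klf4 was 1.04 lower and Klf3 at 100011_at 0.71 lower in EP2KO cells, with 0.821% of all probe sets lower and 1.67% higher. A difference as low as that of Klf4 at 9 h was found in 0.0805% of probe sets, and one as low as that of Klf3 in 0.250%. At 14 h Klf4 was 0.85, Klf6 0.72 and Klf2 0.58 higher in EP2KO cells and 0 members were lower by 0.5 or more, with 1.17% of all probe sets higher and 2.49% lower. Differences as high as those were found in 0.266% of probe sets for Klf4, 0.443% for Klf6 and 0.733% for Klf2. The members were chosen with these values known, so the shares only describe the size of each difference and are no test.

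Averaged over the 4 times, EP2KO minus WT was -0.33 ± 0.263 for Klf4 at 99622_at, -0.24 for Klf6, -0.43 ± 0.123 for Klf3 at 100011_at, 0.12 for Klf2 and 0.26 ± 0.12 for Klf10 at 99602_at (log2, SE, n = 4 arrays per genotype). The limma fit called 0 members and 0 probe sets in all in either direction (0% higher and 0% lower), and 642 probe sets had an unadjusted p under 0.05. The departure at 14 h, that is the EP2KO minus WT difference at 14 h less its mean over 0, 3 and 9 h, was 1.58 ± 0.36 for Klf4 at 99622_at, 1.28 ± 0.205 for Klf6, 0.61 ± 0.194 for Klf2 and 0.37 for Klf3 at 100011_at. The fit called 0 of the 10 member probe sets here, against 0.0644% of all probe sets called higher and 0.0161% lower, which is 10 in all. With the arrays centred the fit called 0 probe sets. At an unadjusted p under 0.05 it held 865 probe sets.

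Some markers of other cells moved with the 14 h values. Of all probe sets 13.5% were called higher and 15.2% lower at 14 h against 0 h. Of 9 oviduct epithelium markers 4 rose and 1 fell at 14 h against 0 h (limma, adjusted p under 0.05), led by Ovgp1, the oviductal glycoprotein, at 3.65 ± 0.151 (adjusted p = 1.63e-07) and the keratin Krt18 at 1.44 ± 0.364 (adjusted p = 0.0131). Their mean log2 level was 8.66 in EP2KO and 8.38 in WT cells at 14 h, and 7.67 to 7.84 on the earlier arrays of both genotypes. Between genotypes at 14 h, 1 of the 9 (Krt18) was at least 0.5 higher in EP2KO cells and 0 were lower by 0.5. Of all probe sets 1.17% were that much higher and 2.49% lower. Cdh1 stood at -0.23, Pax8 at -0.22 and Foxj1 at -0.03 from WT, whereas the others were higher. Foxj1 was also lower at 14 h than at 0 h, at 8.36 against 8.73 in EP2KO and 8.39 against 8.85 in WT cells. Krt18 was 1.57 higher in EP2KO than in WT cells at 14 h and was called in the departure at 14 h (1.76 ± 0.233; limma, adjusted p = 0.0357), though not with each array centred (adjusted p = 0.0961), nor when any one of the 6 earlier arrays was left out. Of 12 leukocyte markers 4 rose and 0 fell at 14 h, led by Lyz2, lysozyme, at 1.69 ± 0.289 and Tyrobp, a signalling adaptor of myeloid cells, at 1.21 ± 0.204. Their mean level was 8.04 in EP2KO and 7.73 in WT cells at 14 h, and 7.17 to 7.52 earlier. Of the 12, 2 were at least 0.5 higher in EP2KO than in WT cells at 14 h, Lyz2 by 1.09 and Tyrobp by 0.95. At that time 0 were lower by 0.5, and Fcer1g stood at -0.18, Cd79a at -0.06 and Cd3e at -0.02 from WT. The part of these cells, and of RNA length, in the 14 h values of Klf2, Klf4 and Klf6 was not tested.

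The 11 endothelium markers were of interest because Klf2 and Klf4 are strong in that cell type. Their mean level was 7.12 to 7.41 over EP2KO arrays and 7.15 to 7.56 over WT arrays. Against 0 h, 17.4% of all probe sets were called higher and 25.4% lower at 3 h. These shares were 10.9% and 12.1% at 9 h, and 13.5% and 15.2% at 14 h. At 14 h against 0 h 1 of them rose (Cdh5, a junction cadherin, by 1.55 ± 0.184) and 1 fell (Tek, a call lost on centring and on quantile normalization), 2 rose and 1 fell at 9 h (Cdh5 rose by 1.52 and Eng by 0.50; 0 fell on centring or quantile normalization), and 0 rose and 3 fell at 3 h, of which 0 fell after quantile normalization. In EP2KO cells Cdh5 was 0.68 and Cd34 0.65 lower than in WT cells at 9 h, and Cdh5 0.81 lower at 14 h. Of the 4 erythroid markers 2 were at least 0.5 lower in EP2KO cells at 3 h and 2 at 9 h. Of all probe sets 2.97% were that much lower and 1.12% higher at 3 h, and 0.821% and 1.67% at 9 h. The mean level of the erythroid markers at 9 h was 8.65 in EP2KO and 9.93 in WT cells. The 10 theca and stroma markers and the 8 oocyte markers held 0 calls at 14 h against 0 h. At 3 h the mean level of the oocyte markers was 7.248 in EP2KO and 6.837 in WT cells, and 1 of the 8, the zona protein gene Zp3, was at least 0.5 higher in EP2KO cells, by 1.12. These marker shifts, and those of the granulosa and cumulus list at 9 h, stood beside the lower Klf3 and Klf4 values of EP2KO cells at 3 and 9 h, and their part in them was not tested.

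The counts of the gene lists that follow stand beside the shares of all probe sets called higher and lower against 0 h, which were 17.4% and 25.4% at 3 h, 10.9% and 12.1% at 9 h, and 13.5% and 15.2% at 14 h. Of 20 other Kruppel-like and Sp factors 9 were measured, and at 3 h against 0 h Klf7 rose whereas Klf13, Klf17, Sp3 and Sp4 fell, with a median of -0.33 beside -0.135 for all probe sets. Klf7, known from neurons, rose by 1.08 ± 0.257 at 3 h (limma, adjusted p = 0.00855) and stood 0.86 up at 9 h (adjusted p = 0.0357). It had 8.22, 8.77, 8.91 and 8.89 at 0, 3, 9 and 14 h in EP2KO cells, against 7.94, 9.55, 8.97 and 8.25 in WT cells. Like Klf4 it was lower in EP2KO cells at 3 h, by 0.78, and higher at 14 h, by 0.64.

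Klf13 was measured by probe sets that disagreed. The brighter one, 103369_at, fell by 0.48 at 3 h (limma, adjusted p = 0.0115), whereas 160617_at rose by 1.0 at 3 h (adjusted p = 0.00559) and by 1.90 at 9 h. At 160617_at the signal was 8.25, 9.22, 10.29 and 8.89 at 0, 3, 9 and 14 h in EP2KO cells, against 8.45, 9.48, 10.21 and 8.09 in WT cells, so EP2KO cells stood 0.80 higher at 14 h. Sp3, a broadly expressed relative, fell by 0.73 at 3 h (adjusted p = 0.00558), and Sp4 at 92991_at fell by 1.04 at 3 h, 1.06 at 9 h and 0.89 at 14 h. The other Sp4 probe sets, 92992_i_at and 92993_r_at, had lower signals and changed by -0.19 and -0.26 at 3 h. They were not called at 3, 9 or 14 h against 0 h. Klf17, a germ cell factor, fell by 0.43 at 3 h at 162265_r_at (adjusted p = 0.0261, and 0.055 with each array centred). Its other probe set, 92324_at, changed by -0.19 at 3 h and was not called. Klf1, Klf5, Klf12 and Sp1 were not called at 3, 9 or 14 h against 0 h, with changes at 3 h of -0.28, -0.02, -0.27 and -0.33, though Sp1 was lower at 3 h after quantile normalization (adjusted p = 0.00992). In the genotype contrast and in the departure at 14 h 0 of the 9 were called.

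**Figure D4:**
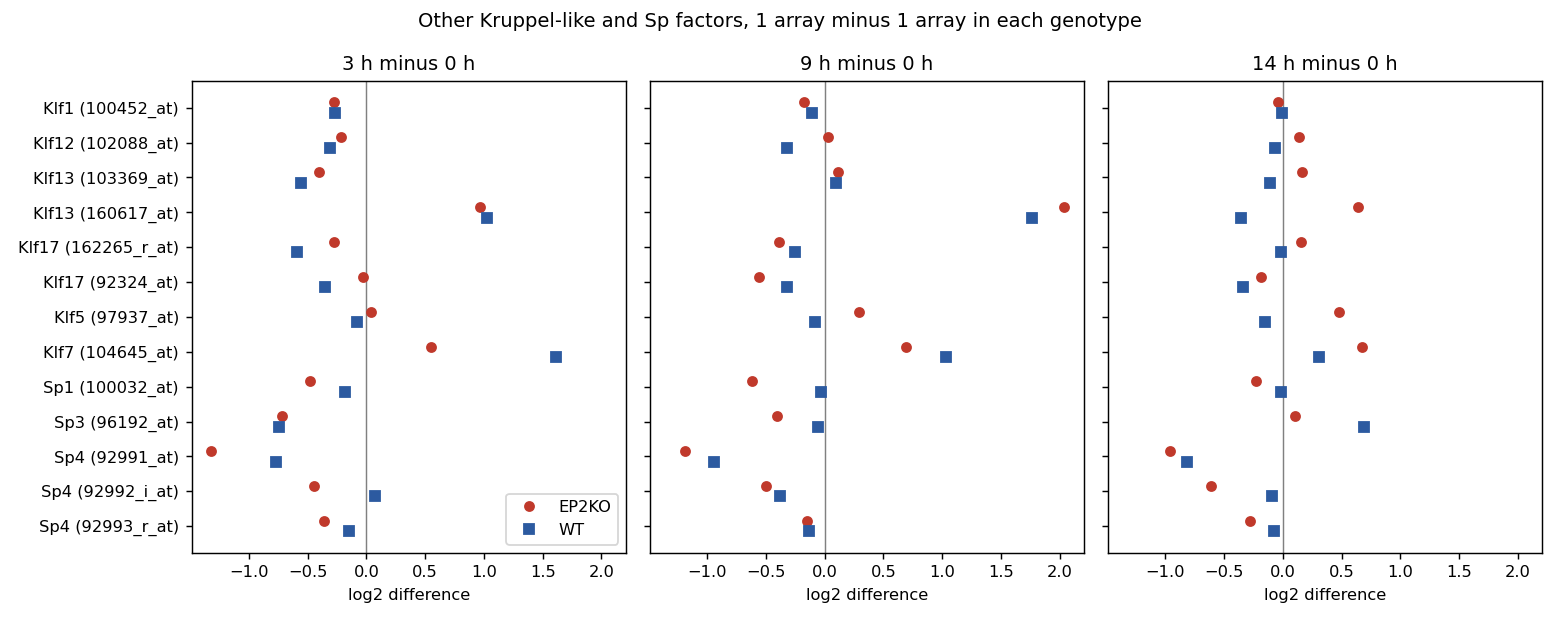
Log2 change from 0 h (horizontal axis) of the other Kruppel-like and Sp factor probe sets (rows) at 3, 9 and 14 h (panels), red circles for EP2KO and blue squares for WT, each 1 array minus 1 array. Klf7 and the Klf13 probe set 160617_at lie to the right of 0 at 3 and 9 h in both genotypes, and Sp4 at 92991_at lies to the left at all 3 times.

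Immediate early genes, which respond to stimulation without new protein synthesis, mostly rose over the same times. Of 17 measured 9 rose and 1 fell at 3 h, 12 rose and 0 fell at 9 h, and 14 rose and 0 fell at 14 h against 0 h (limma, adjusted p under 0.05). The medians were 0.51, 0.80 and 1.09 beside -0.135, -0.080 and -0.060 for all probe sets. Ier3 rose by 4.39 ± 0.184 at 3 h (adjusted p = 5.1e-07), Ier2 by 2.94 ± 0.189, the AP-1 subunit Junb by 2.08 ± 0.255 and the nuclear receptor Nr4a1 by 2.06 ± 0.218. At single times, named after their values were seen, Fosl1, Junb, Nr4a2 and Ier3 were at least 0.5 lower in EP2KO cells at 3 h and Junb, Egr1 and Nr4a1 at 9 h. At 14 h Fos, Fosb, Junb and Atf3 were at least 0.5 higher in EP2KO cells and Nr4a1 lower. Of all probe sets 2.97% were that much lower at 3 h and 0.821% at 9 h. At 14 h 1.17% were that much higher and 2.49% lower. Junb at 102362_i_at had 8.40, 10.27, 9.45 and 10.00 at 0, 3, 9 and 14 h in EP2KO cells. In WT cells it had 8.68, 10.98, 10.12 and 9.42, so its genotypes crossed between 9 and 14 h. Those of Klf4 at 99622_at had crossed in the same direction. The other Junb probe set had 8.69, 9.97, 9.48 and 9.98 in EP2KO cells, against 8.84, 10.53, 9.78 and 9.84 in WT cells. It crossed in that direction too, but its genotypes lay less than 0.5 apart at 9 and 14 h. The median EP2KO minus WT difference of the list was -0.24, -0.25, -0.28 and 0.13 at 0, 3, 9 and 14 h.

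The genes whose pattern over the 8 arrays was most like that of each member were taken from 2845 probe sets with 1 symbol and a range of at least 1. For Klf4 at 99622_at they were Junb at another probe set (Pearson r = 0.978), Errfi1, a feedback inhibitor of the EGF receptor (0.958), and Cavin1, a caveolar coat protein (0.952). For Klf6 they were Isg20 (0.974), the collagen receptor Ddr1 (0.961) and the phospholipase Plcd1 (0.958). For Klf2 they were Ccn4 (0.988), annexin Anxa1 (0.976) and Ccn1 (0.971). For Klf3 they were Hccs (0.973), Plod3 (0.957) and Pex5 (0.950) at 100011_at and Nr4a2 (0.968), Crtap (0.954) and Yap1 (0.937) at 100010_at. The best values were lower for Klf9, with Prkg2 (0.888) at 93528_s_at and Dusp6 (0.885) at 93527_at, and for Klf10, with Shkbp1 (0.850) at 99602_at and Pdk4 (0.755) at 99603_g_at. For the low Klf4 probe set 161185_i_at the closest was Ank3 (0.959). The points share their 8 arrays and the 4 times. Between members, r was 0.87 for Klf2 with Klf6 and 0.73 for Klf4 at 99622_at with Klf6.

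Errfi1 had 9.05, 11.65, 10.70 and 11.44 at 0, 3, 9 and 14 h in EP2KO cells, against 8.95, 12.29, 11.50 and 11.10 in WT cells, lower in EP2KO cells at 3 and 9 h and higher at 14 h. Ccn1, the cysteine-rich matrix protein, had 6.66, 7.05, 8.12 and 8.80 in EP2KO cells and 6.98, 6.64, 8.14 and 7.88 in WT cells, close at 9 h and higher in EP2KO cells at 14 h, as Klf2 was.

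Among the genes known upstream of the members, the MEK5, ERK5 and MEF2 arm had 8 of 8 measured, of which 0 rose and 2 fell at 3 h (1 with each array centred, 3 after quantile normalization), 1 rose and 2 fell at 9 h, and 2 rose and 1 fell at 14 h against 0 h (limma, adjusted p under 0.05). Mef2c fell by 1.01 ± 0.148 at 3 h (adjusted p = 0.00079) and by 1.10 at 14 h, Mef2a by 0.95 ± 0.175 at 9 h, and Mef2d rose by 0.68 ± 0.141 at 14 h (adjusted p = 0.00466). The TGF-beta list, all 13 measured, had 2 up and 4 down at 3 h (2 and 2 with each array centred, 1 and 3 after quantile normalization), 0 up and 2 down at 9 h, and 1 up and 2 down at 14 h. The inhibitory Smad7 fell by 1.07 ± 0.135 at 3 h, 1.28 at 9 h and 1.14 at 14 h (limma, adjusted p = 0.000362, 0.000145 and 0.000132). Tgif1, a corepressor, rose by 0.95 ± 0.234 at 3 h (adjusted p = 0.0101, and 0.0637 after quantile normalization). Smad7, Tgfb1, Tgfbr1 and Tgfbr2 are counted again in the list of reported targets below. Klf10 itself was not called against 0 h, and a link between it and Smad7 was not tested.

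The glucocorticoid and progesterone list, all 10 measured, had 2 up and 3 down at 3 h (2 and 0 with each array centred), 2 up and 1 down at 9 h, and 4 up and 1 down at 14 h. Its largest rises were those of the kinase Sgk1, by 1.92 ± 0.181, 3.00 and 4.48 at 3, 9 and 14 h (limma, adjusted p = 8.69e-05, 4.21e-06 and 1.4e-07), and of the phosphatase Dusp1, by 2.02 at 14 h. Fkbp5, a chaperone cofactor of the glucocorticoid receptor, rose by 0.80 ± 0.155 at 14 h, and the glucocorticoid-inactivating enzyme Hsd11b2 fell by 1.17 ± 0.173. Other listed genes were lower at 14 h than at 0 h. Tsc22d3 had 8.24 against 8.46 in EP2KO and 8.19 against 8.45 in WT cells. Zbtb16 had 7.44 against 7.61 in EP2KO and 7.46 against 7.77 in WT cells. Each Klf9 probe set stayed within 0.48 over the same arrays, and whether Klf9 shared a regulator with these genes was not tested.

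Of 19 measured genes reported elsewhere as targets of the members, 2 rose and 5 fell at 3 h, 2 rose and 2 fell at 9 h, and 4 rose and 2 fell at 14 h, with medians of -0.04, -0.05 and -0.07 beside -0.135, -0.080 and -0.060 for all probe sets. Cdkn1a, the cell cycle inhibitor that Klf4 and Klf6 activate, rose by 1.36 ± 0.271 at 3 h (limma, adjusted p = 0.00378) and stood 0.94 up at 14 h (adjusted p = 0.0255). At 0, 3, 9 and 14 h it had 9.2, 10.11, 9.9 and 10.45 in EP2KO cells, against 9.35, 11.16, 9.84 and 9.97 in WT cells. Of the 19, 3 were at least 0.5 lower in EP2KO cells at 3 h and 0 higher, beside 2.97% and 1.12% of all probe sets. Ccnd2, the cyclin of proliferating granulosa cells, fell by 1.26 ± 0.159 at 9 h and by 2.71 at 14 h (adjusted p = 0.000398 and 1.3e-06). Lgals3, a galactoside-binding lectin, rose by 1.23, 3.54 and 4.67 at 3, 9 and 14 h (adjusted p = 0.00363, 8.98e-06 and 6.12e-07).

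Of the 13 measured cofactors and ubiquitin ligases, 5 rose and 1 fell at 3 h, 3 rose and 2 fell at 9 h, and 2 rose and 1 fell at 14 h, where 4 fell after quantile normalization. The scaffold Sin3b rose by 1.05 ± 0.129 at 3 h (limma, adjusted p = 0.000311) while its relative Sin3a fell by 0.81 ± 0.122 (adjusted p = 0.000945). The acetyltransferase Kat2b rose by 1.17 ± 0.117 at 9 h and by 1.78 at 14 h (adjusted p = 0.000102 and 2.43e-06). In the genotype contrast and in the departure at 14 h 0 genes of the upstream, target, cofactor and immediate early lists were called.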

How the data were processed

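The deposited table holds log2 signals of 12488 probe sets on 8 MG_U74Av2 arrays, made by the authors with RMA, per the submitters' processing notes; neither its version nor a genome build is stated. The labelled RNA went through 2 cycles of in vitro transcription, per the labels' protocols. The values were used as deposited, without the 66 control probe sets, so 12422 were tested; 10833 name 1 gene, by the platform annotation, 396 several and 1193 none. Equal values made up at most 2.55% of any pair of arrays.

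Fits used limma 3.58.1 (lmFit, eBayes) in R 4.3.3 with time and genotype as terms (3 residual degrees of freedom, prior 7.24), and with the interaction of genotype and 14 h for the departure (2 residual degrees, prior 8.20). P-values are two-sided and adjusted (Benjamini-Hochberg) over all 12422, with a threshold of 0.05. Nothing in the labels gives separate animals per array, so p-values measure only the spread between these arrays, and a genotype difference in the time course goes into the residual. At single times an absolute difference of 0.5 or more was counted, without a test. The fit was checked on simulated data.

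The members, lists, tests and promoter motifs were chosen with earlier results of these data known. For a listed gene the probe set of highest mean was used. Named were every member probe set, every measured other Kruppel-like or Sp factor, up to 4 called genes per list and contrast with the largest change, and the 3 genes with the highest r per member probe set (the first or all of them are printed). Alternatives were centring each array, quantile normalization, leaving out the lowest 40% of probe sets, an intensity trend with a robust prior, fits on the 4 arrays of 2 times, leaving out each array, and, chosen after seeing the data, leaving out both 14 h arrays and a single-time difference of 1.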

Additional observations from a re-analysis of the deposited data

Results flagged for a closer look

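The signals of 3 member probe sets moved in opposite directions in the genotypes between 2 times, each by at least 0.2 on the log2 scale. These differences rest on 1 array per genotype and time and were not tested. Klf4 at 99622_at changed by 1.64 in EP2KO and by -0.25 in WT cells at 14 h against 9 h. Klf3 at 100011_at changed by -0.27 in EP2KO and by 0.34 in WT cells at 9 h against 0 h, and the other Klf3 probe set changed by -0.36 in EP2KO and by -0.30 in WT cells. Klf10 at 99602_at changed by 0.29 in EP2KO and by -0.52 in WT cells at 3 h against 0 h.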

How the results depend on the processing

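No paired analysis was possible because each genotype and time has 1 array, numbered 1 throughout, so no number links arrays of one animal or batch; the genotype contrast compares EP2KO with WT within each time. Leaving out 1 array at a time, the probe sets called ranged from 1897 to 5471 at 3 h against 0 h, 1225 to 3036 at 9 h and 2289 to 3809 at 14 h, from 489 to 2605 at 9 h against 3 h, and from 1286 to 2668 at 14 h against 9 h. The member counts ranged from 1 to 3, 1 to 4, 4 to 5, 0 to 4 and 1 to 5 in the same contrasts. The genotype contrast ranged from 0 to 1 probe sets and the departure at 14 h was 0 throughout; without a 14 h array the departure could not be fitted. At 9 h against 3 h the member count was 0 without the WT array of 3 h or the EP2KO array of 9 h, and at 14 h against 9 h it was 5 without the WT array of 14 h.

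Without the lowest 40% of probe sets, 3482 were called at 3 h against 0 h, 0 in the departure and 1 member at 14 h against 9 h. Fits on the 4 arrays of the times compared gave 2888 calls at 3 h against 0 h, 1257 at 9 h against 3 h and 699 at 14 h against 9 h, with 0 members in the last. Member counts at 9 h against 3 h were 0 with centring and 0 after quantile normalization, which called 1 member in the departure. The departure held 0 probe sets with centring and 17 with an intensity trend, and the genotype contrast 1 without both 14 h arrays. Counting single-time differences of at least 1 left 2 member differences of 10. Of 889 recomputed changes of single members, 799 moved by less than the SD of 1 array, 90 by more and 0 called ones changed sign. The cause of these changes was not tested. Single arrays limit every genotype value, and low probe sets such as Klf4 at 161185_i_at may lie near background. Probe sets of one gene disagreed for Klf4 and Klf13, and in part for Klf3. For Sp4 and Klf17 only 1 probe set each was called against 0 h.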
